A study of Mus musculus with 454 samples.

Results

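The salt-inducible kinases Sik1, Sik2 and Sik3, the CREB-regulated transcription coactivators Crtc1, Crtc2 and Crtc3, and the cAMP-responsive transcription factors Creb1 and Crem were followed through 454 mouse brain RNA-seq libraries. These 8 genes were chosen by name, with earlier results of these data known, among them Sik1 in PFC with acute cocaine. Each was matched by its Ensembl identifier to 1 of the 43346 genes in the count table. The libraries come from 4 regions, labelled AMY (amygdala, 115 libraries), Nac (nucleus accumbens, 112), PFC (prefrontal cortex, 112) and VTA (ventral tegmental area, 115). Within each region the labels define 16 groups of 5 to 8 libraries: females or males, group-housed or socially isolated, on an acute or a chronic schedule, with cocaine at 7.5 mg/kg or with 0 mg/kg, which is called saline here. The series title places the isolation in adolescence. The sources used here give no strain, age or number of injections.

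Sik kinases are activated by the kinase Lkb1 (Stk11) and phosphorylate the Crtc proteins, which are then held in the cytoplasm by 14-3-3 proteins. When cAMP rises, protein kinase A phosphorylates and inhibits the Siks, while calcium activates the phosphatase calcineurin. Crtc proteins lose their phosphates, enter the nucleus and bind Creb1 on cAMP response elements, with the letters TGACGTCA in the full form and TGACG in the short form. Sik1 is itself a Creb target that is induced by activity, so its transcript is part of a feedback loop. Crem encodes activators and, from an internal promoter, the repressor ICER. In the striatum and cortex, cocaine raises cAMP through dopamine D1 receptors, and this route to Creb has been studied for many years in addiction.

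Promoters of 5 of the 8 members, Sik2, Sik3, Crtc1, Crtc3 and Creb1, were read from a table of RefSeq promoter sequences (build GRCm38.p6). Sik1 and Crtc2 had no entry, and Crem was left out of the search. The promoters of Sik2 and Sik3, a pair of kinases on chromosome 9, and of Crtc3 are printed because they differ in short cAMP response elements. Crtc3 is the coactivator that was called with chronic cocaine in PFC, though only in some of the fits. Each runs from 250 bases before the start site to 30 bases after it, 5′ to 3′ on the gene's strand, and capitals mark TGACG on either strand.
Sik2 (chr9:51009044-51009323, minus strand): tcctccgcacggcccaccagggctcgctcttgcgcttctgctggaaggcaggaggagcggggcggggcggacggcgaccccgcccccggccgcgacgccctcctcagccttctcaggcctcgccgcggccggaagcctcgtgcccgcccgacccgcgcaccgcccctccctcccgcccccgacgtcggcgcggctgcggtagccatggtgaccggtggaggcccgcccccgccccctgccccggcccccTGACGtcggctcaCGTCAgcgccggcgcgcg
Sik3 (chr9:46012570-46012849, plus strand): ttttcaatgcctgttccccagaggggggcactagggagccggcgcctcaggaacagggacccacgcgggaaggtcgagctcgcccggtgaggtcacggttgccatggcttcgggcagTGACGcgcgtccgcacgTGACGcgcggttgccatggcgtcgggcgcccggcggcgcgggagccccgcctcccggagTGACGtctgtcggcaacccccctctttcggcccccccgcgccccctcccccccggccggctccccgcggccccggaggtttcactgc
Crtc3 (chr7:80688848-80689127, minus strand): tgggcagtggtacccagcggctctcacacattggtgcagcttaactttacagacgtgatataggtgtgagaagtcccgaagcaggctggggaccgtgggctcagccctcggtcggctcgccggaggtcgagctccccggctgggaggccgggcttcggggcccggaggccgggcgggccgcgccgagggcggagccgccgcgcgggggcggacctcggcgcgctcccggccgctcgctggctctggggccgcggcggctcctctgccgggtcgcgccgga
In the full window of 300 bases, Sik2 had 2 matches to TGACG, whose first bases lay at positions -1 and 13 from the start site. Sik3 had 3 matches, at -133, -116 and -57. Crtc1, Crtc3 and Creb1 had 0 matches, and the full TGACGTCA, which would contain a TGACG match on each strand, was in none of the 5 windows. Of the 32851 promoters in the table, 20.8% held TGACG on either strand and 1.79% held TGACGTCA. The 5 windows were rich in G and C, with 80% for Sik2, 73.7% for Sik3, 71.7% for Crtc1, 74.7% for Crtc3 and 69% for Creb1, against a median of 52.7% over all promoters. A match describes the letters only.

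In GENCODE M21 (GRCm38), Sik1 lies on chromosome 17, 31844250 to 31855804 on the minus strand, and Sik3 on chromosome 9, 46012820 to 46224194 on the plus strand. Crtc1 is on chromosome 8 (70382355 to 70439579, minus), Crtc2 on chromosome 3 (90254163 to 90264125, plus) and Crtc3 on chromosome 7 (80586627 to 80688877, minus). Creb1 is on chromosome 1 (64532645 to 64604548, plus) and Crem on chromosome 18 (3266048 to 3337748, minus).

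Library totals ran from 11.2M to 52.3M counts with a median of 21.7M. All 8 members passed the filter on low counts in every region, and the lowest count of any member in any library was 31, for Sik2 in a Nac library. Regional markers followed the labels: the log2 CPM of 5 cortical glutamatergic markers averaged 7.56 over the PFC libraries and at most 4.38 in the other regions, and that of 5 dopamine neuron markers was 8.84 in VTA and at most 2.15 elsewhere. By markers and principal components, 5 AMY, 9 Nac, 5 PFC and 6 VTA libraries stood apart from their region. The numbers in the library titles fall into 4 series, called here 500, 1000, 1100 and 1200. Acute groups lie in series 1000 and 1100, each with both treatments. Chronic saline lies in 500 and 1200 and chronic cocaine in 1000 and 1200, so only series 1200 holds both chronic treatments. What a series stands for is not given in the labels, and nothing in them says that libraries of a group come from separate animals, so p-values measure the spread between these libraries.

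Levels differed between the members and between the regions. Per kilobase of exon, Sik3 and Crtc1 were the highest members and Crem, Sik1, Sik2 and Crtc3 the lowest. Crtc1, the coactivator most typical of neurons, reached 27.3 ± 4.56 CPM per kb (SD, n = 112) in Nac, 23.3 ± 2.58 in PFC and 21.8 ± 2.73 in AMY, but 8.34 ± 1.38 (n = 115) in VTA. It was 2.80-fold higher in PFC than in VTA (adjusted p = 5.11e-187). Sik3 ranged from 18.5 ± 1.69 CPM per kb in PFC to 28.9 ± 2.91 in Nac. Crtc2 spanned 5.73 ± 0.609 in VTA to 7.17 ± 0.912 in Nac, and Creb1 3.86 ± 0.489 in VTA to 4.68 ± 0.497 in PFC.

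**Figure D1:**
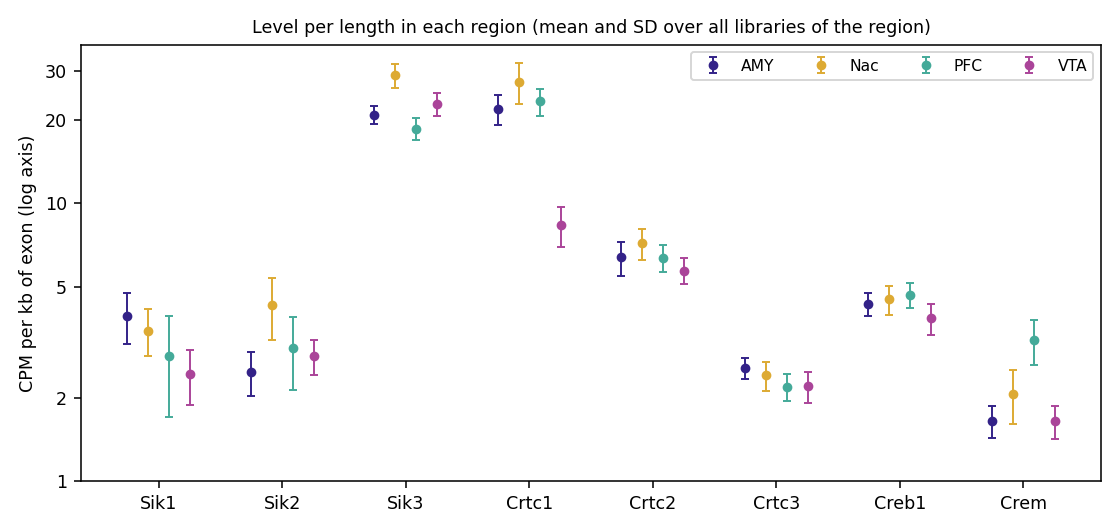
Mean level of each member per kilobase of exon (CPM per kb, log axis) in the 4 regions, with bars of 1 SD over the 112 or 115 libraries of a region. Crtc1 stands at 8.34 in VTA against 21.8 to 27.3 elsewhere, and Crem is highest in PFC at 3.21.

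Sik1 was ordered AMY, Nac, PFC, VTA, with 3.95 ± 0.816, 3.49 ± 0.665, 2.83 ± 1.12 and 2.42 ± 0.549 CPM per kb, and each neighbouring pair differed in the joint fit. Its group means spanned 2.88-fold in PFC, from isolated males with chronic saline to group-housed males with acute cocaine, and 1.40 to 1.67-fold in the other regions. Sik2 was highest in Nac at 4.31 ± 1.10 CPM per kb and lowest in AMY at 2.48 ± 0.445. Crem was 3.21 ± 0.587 in PFC, 2.06 ± 0.456 in Nac, 1.65 ± 0.222 in AMY and 1.64 ± 0.217 in VTA. Crtc3 lay within 2.19 and 2.55 CPM per kb in all regions. In the joint edgeR fit of all 454 libraries (quasi-likelihood test, p-values adjusted over 18627 genes), all 8 members differed between AMY and Nac, Nac and PFC, and Nac and VTA. Between AMY and PFC 7 differed, between AMY and VTA 7, and between PFC and VTA 6. Most genes did so too: the shares of all genes called were 84.4% for AMY against Nac, 81.5% for AMY against PFC, 87.3% for AMY against VTA, 86% for Nac against PFC, 90.4% for Nac against VTA and 89.3% for PFC against VTA. Neighbours that did not pass the test were Crem in AMY and VTA (log2 difference 0.012), Crtc2 in AMY and PFC (0.011), Crtc3 in PFC and VTA (-0.0035) and Sik2 in PFC and VTA (0.060).

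With acute cocaine, 1 member changed in 1 region: Sik1 rose in PFC. With chronic cocaine, Sik1 and Crtc3 rose in PFC, and 0 members were called in the other regions. With the number series as a term, or within series 1200, 0 members were called in PFC with chronic cocaine. The acute and chronic comparisons each average the cocaine minus saline difference over the 4 combinations of sex and housing, tested by the quasi-likelihood method of edgeR with p-values adjusted (Benjamini-Hochberg) over all genes of the region and a threshold of 0.05. For acute cocaine the share of all genes called was 0% in both AMY and Nac, 0.0467% in VTA and 0.0647% in PFC (11 of 17003 genes). For chronic cocaine it was 7.12% in PFC (668 genes rose and 542 fell), 0.151% in Nac, 0.0817% in VTA and 0.0518% in AMY. Where 0 genes were called, 538 genes in AMY and 894 in Nac had an unadjusted p under 0.05 with acute cocaine. The members' median log2 change in PFC was 0.041 with acute and 0.050 with chronic cocaine, against 0.0017 and 0.0023 over all genes, and 5 and 7 of the 8 members lay above 0, against 51% and 51.2% of all genes. The chronic shift was not kept when the number series was taken into account. With the series as a term 1 of 8 members lay above 0 (median -0.021), and within series 1200 3 of 8 (median -0.018).

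**Figure D2:**
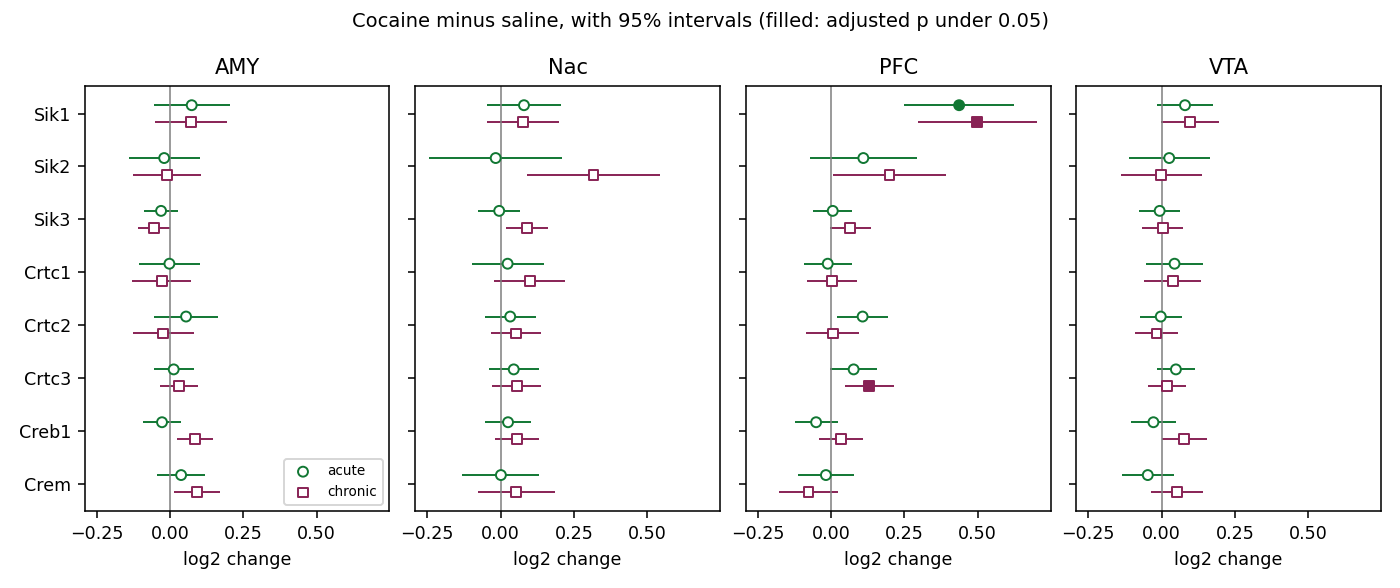
Log2 change of each member, cocaine minus saline, with 95% intervals, by region and schedule; filled symbols have an adjusted p under 0.05. The 3 filled symbols are all in PFC, Sik1 at 0.44 and 0.50 and Crtc3 at 0.13, and all other symbols are open.

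Sik1 in PFC was measured at 9.24 CPM in the lowest acute saline library, 14.0 at the median and 20.6 in the highest (14.7 ± 3.35, SD, n = 28). With acute cocaine it ran from 11.9 through 19.8 to 27.1 CPM (19.9 ± 3.78, n = 30). The ranges overlapped, and 28 of 30 cocaine libraries lay above the saline median. The rise was 1.35-fold (log2 change 0.44, SE 0.096, 95% interval 0.25 to 0.62, adjusted p = 0.0241 by edgeR). Without the filter on low counts, when more genes are tested, the same change had an adjusted p of 0.0645. In bulk tissue a change in RNA per cell and a change in the number of cells that express the gene cannot be told apart.

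The acute rise of Sik1 in PFC was not shown to differ between the housings. Group-housed mice had 15.3 ± 3.15 CPM (n = 14) with saline and 21.5 ± 3.75 (n = 15) with cocaine, and 14 of 15 cocaine libraries lay above the saline median. Isolated mice had 14.1 ± 3.56 (n = 14) and 18.3 ± 3.16 (n = 15), again with 14 of 15 above. The log2 changes were 0.49 (SE 0.135, adjusted p = 0.150) and 0.38 (SE 0.136, adjusted p = 0.999) by edgeR, so neither passed alone. The difference, isolated minus group-housed, was -0.12 with a 95% interval of -0.49 to 0.26. Females and males had log2 changes of 0.43 and 0.45, and the 4 combinations of sex and housing gave 0.35 to 0.50.

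Both number series that hold acute groups showed the rise. In series 1000, saline libraries ran from 11.5 through 14.9 to 20.2 CPM (n = 14) and cocaine libraries from 15.1 through 19.5 to 25.8 (n = 15), all 15 above the saline median. In series 1100, saline ran from 9.24 through 12.7 to 20.6 (n = 14) and cocaine from 11.9 through 21.3 to 27.1 (n = 15), with 14 above. The log2 change was 0.40 in series 1000 (95% interval 0.25 to 0.56, adjusted p = 0.04998) and 0.53 in series 1100 (0.38 to 0.68, adjusted p = 0.000214) by edgeR, and the difference was 0.12 (-0.09 to 0.33, adjusted p = 0.998). In this fit of all acute libraries, Sik1 was the 1 gene called in PFC in series 1000, which is 0.00606% of the genes. In series 1100, 10 genes (0.0606%) were called, and 0% differed between the series. These counts depended on the fit. With series 1000 fitted alone, 2 of 26 Creb and Crtc target genes were called beside Sik1, and series 1100 fitted alone gave fewer calls. In AMY, Nac and VTA the fit of all acute libraries called 0% of genes within series 1000 or series 1100. Between the series 0% differed in AMY or Nac, and 0.00592% did in VTA, where Sik1 had log2 changes of -0.055 in series 1000 and 0.21 in series 1100 (difference 0.27, unadjusted p = 0.0125, adjusted p = 0.232).

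With chronic cocaine Sik1 also rose in PFC, from lower levels. Chronic saline libraries ran from 5.91 through 7.60 to 18.5 CPM (8.40 ± 2.61, n = 26) and chronic cocaine libraries from 5.73 through 10.8 to 22.3 (11.9 ± 4.22, n = 28), with 25 of 28 above the saline median and overlapping ranges. The change was 1.41-fold (log2 change 0.50, SE 0.103, 95% interval 0.30 to 0.70, adjusted p = 0.00261 by edgeR). The acute and the chronic change, which share no libraries, differed by -0.062 (95% interval -0.34 to 0.21). The chronic rise was 0.36 in group-housed (adjusted p = 0.767) and 0.64 in isolated mice (adjusted p = 0.00975), where saline libraries had 7.79 ± 1.63 CPM (n = 13) and all 14 cocaine libraries (12.3 ± 3.84) lay above the saline median. The difference between the housings was 0.29 with a 95% interval of -0.12 to 0.69 and did not pass the test. Isolated males had the highest of the 4 values, 0.87 (SE 0.202, adjusted p = 0.00670 by edgeR), and the other 3 combinations gave 0.31 to 0.41. Single libraries weigh on these values. The cocaine group of isolated males held a library at 22.3 CPM (next 14.4). The saline group of group-housed males held a library at 18.5 CPM (next 10.4).

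The chronic comparison is mixed with the number series. In PFC, Sik1 ran from 5.91 through 6.77 to 8.79 CPM in the 10 saline libraries of series 500 and from 5.93 through 10.4 to 17.4 in the 20 cocaine libraries of series 1000. Within series 1200, saline libraries ran from 6.54 through 8.95 to 18.5 CPM (n = 16) and cocaine libraries from 5.73 through 14.6 to 22.3 (n = 8), with 5 of 8 above the saline median. The log2 difference was 0.60 within series 1200 (95% interval 0.29 to 0.91, unadjusted p = 0.00111) and 0.57 with the series as a term (0.27 to 0.87, unadjusted p = 0.000317). Neither passed the threshold (adjusted p = 0.972 and 0.764). Both values rest on series 1200, the only series with both chronic treatments, so they are not independent. Within series 1200, 1 gene was called in PFC (0.00573%), and the shares were 0.00572% in AMY, 0.0169% in Nac and 0.00576% in VTA.

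**Figure D3:**
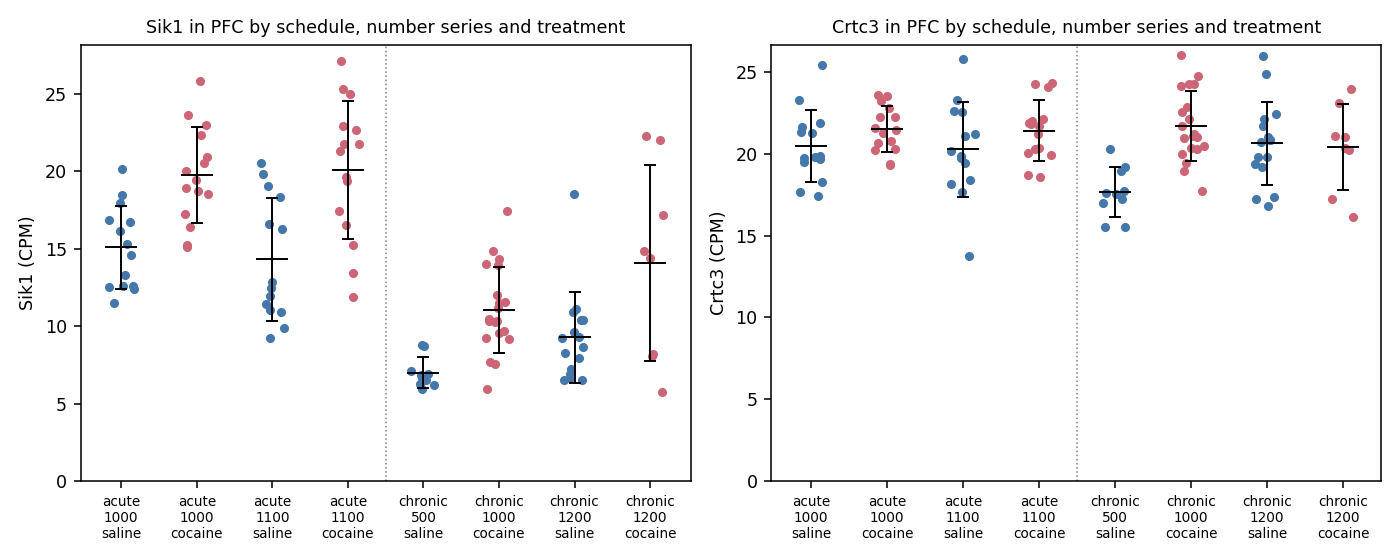
Sik1 and Crtc3 in PFC (CPM) in each library, split by schedule, number series and treatment, with mean and SD. Sik1 is higher with cocaine within series 1000 and 1100 (acute) and, at the mean, within series 1200 (chronic), whereas Crtc3 has means of 20.7 and 20.4 CPM in the saline and cocaine libraries of series 1200.

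Within series 1200 the Sik1 values of the other regions also lay higher with chronic cocaine. In Nac, 18 saline libraries were at 15.6 ± 2.31 CPM and 8 cocaine libraries at 19.4 ± 2.44, all 8 above the saline median (log2 change 0.38, 95% interval 0.23 to 0.53, unadjusted p = 5.21e-05, adjusted p = 0.132 by edgeR). In VTA saline libraries ran from 8.10 through 9.91 to 11.5 CPM (n = 17) and cocaine libraries from 9.65 through 12.1 to 14.0 (n = 8), a log2 change of 0.27 (0.16 to 0.38, unadjusted p = 0.000135, adjusted p = 0.780). In AMY they were at 17.5 ± 2.61 (n = 17) and 19.6 ± 3.40 (n = 8), a change of 0.22 (0.059 to 0.39, unadjusted p = 0.0139, adjusted p = 0.669). None passed the adjusted threshold. The chronic cocaine libraries of series 1000, 22 in AMY and 21 each in Nac and VTA, are not in these values. Over all series the changes in these regions were smaller, 0.072 in AMY, 0.076 in Nac and 0.097 in VTA. The 8 cocaine libraries of each region carry the same 8 title numbers, so the 4 regions are not 4 independent sets, and isolated females are represented by 1 of the 8.

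Over all number series, Sik1 outside PFC changed by 0.074, 0.080 and 0.080 with acute cocaine in AMY, Nac and VTA and by 0.072, 0.076 and 0.097 with chronic cocaine, none past the threshold. Median acute saline and cocaine levels were 14.1 and 14.7 CPM in VTA, 18.5 and 19.7 in Nac and 22.5 and 24.8 in AMY, with strongly overlapping ranges. In the joint fit the acute change in AMY minus that in PFC was -0.36 (95% interval -0.56 to -0.16, unadjusted p = 0.000363, adjusted p = 1). Nac minus PFC gave -0.34 (-0.54 to -0.15, adjusted p = 0.231), and PFC minus VTA gave 0.35 (0.15 to 0.55, adjusted p = 0.310). These differences therefore did not pass adjustment over all genes, where 0% of genes were called for AMY against PFC, 0.00537% for Nac against PFC and 0.0215% for PFC against VTA. For the remaining pairs the shares were 0% for AMY against Nac, 0.0322% for AMY against VTA and 0.0429% for Nac against VTA, with 0 of 8 members called in any pair.

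**Figure D4:**
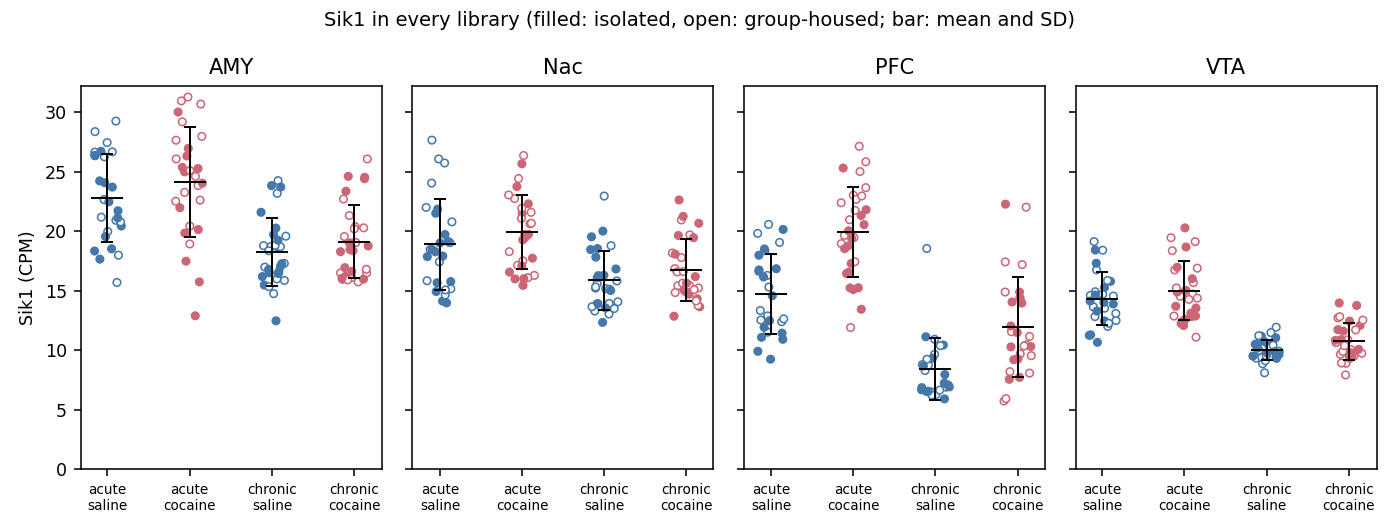
Sik1 (CPM) in every library by region, schedule and treatment, with mean and SD; filled points are isolated and open points group-housed mice. PFC medians rise from 14.0 to 19.8 CPM on the acute and from 7.60 to 10.8 on the chronic schedule, and the chronic libraries lie lower than the acute ones in every region.

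In all 4 regions Sik1 was lower in chronic than in acute saline libraries. The medians were 17.8 against 22.5 CPM in AMY, 15.3 against 18.5 in Nac, 7.60 against 14.0 in PFC and 9.91 against 14.1 in VTA. The schedules lie in different number series, apart from the chronic cocaine libraries in series 1000, so schedule and series cannot be told apart in saline libraries.

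Sik2, the isoform studied most in adipose tissue and in neuronal survival, was not called in any region or schedule. Its largest change was in Nac with chronic cocaine: saline libraries ran from 2.42 through 36.6 to 45.3 CPM (n = 28) and cocaine libraries from 27.9 through 41.1 to 69.3 (n = 29), with 20 of 29 above the saline median (log2 change 0.32, SE 0.115, unadjusted p = 0.00688, adjusted p = 0.142 by edgeR). The lowest saline and the highest cocaine value both belong to libraries that stand apart. Without such libraries the change was 0.23 (adjusted p = 0.351), and within series 1200 it was 0.048, with medians of 36.9 CPM (n = 18) and 36.8 (n = 8). In PFC Sik2 changed by 0.11 with acute (adjusted p = 0.685) and by 0.20 with chronic cocaine (adjusted p = 0.199), and in AMY and VTA by -0.020 to 0.026. Sik2 overlaps Ppp2r1b on the opposite strand (GRCm38, chromosome 9, 50892801 to 51009073 for Sik2). The sources used here do not give the strand setting of the counting, so reads of that overlap cannot be assigned with certainty.

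**Figure D5:**
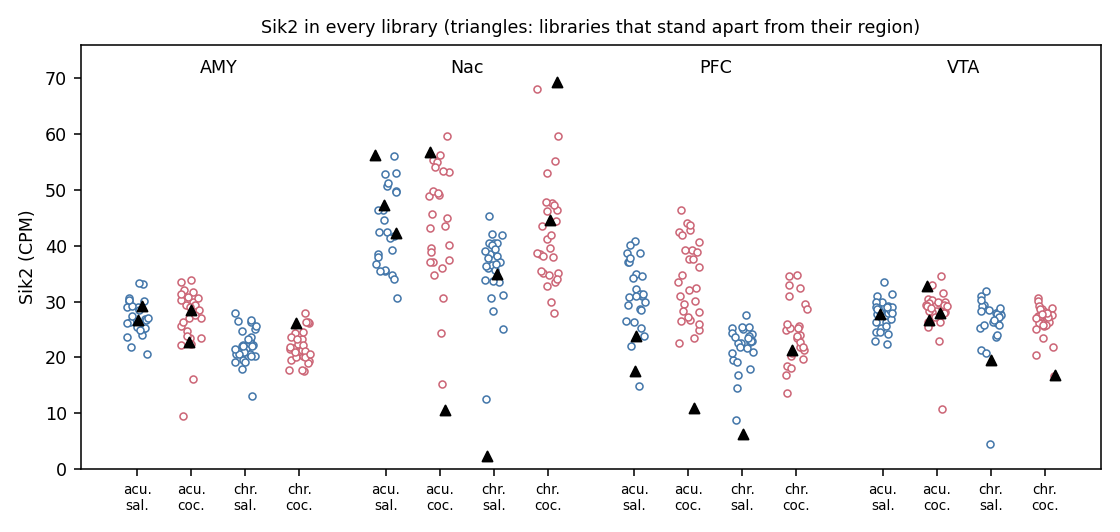
Sik2 (CPM) in every library by region, schedule and treatment; black triangles are libraries that stand apart from their region. Single libraries fall far below their group, down to 2.42 CPM in Nac and 4.45 in VTA, and some but not all of these are triangles.

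Sik3, the kinase of the 3 with the highest level per length and a regulator of sleep need, was not called. Its acute medians in PFC were 169.6 CPM with saline and 171.4 with cocaine (log2 change 0.0057, 95% interval -0.061 to 0.073). With chronic cocaine it changed by 0.065 in PFC (adjusted p = 0.255), by 0.090 in Nac (unadjusted p = 0.0152, adjusted p = 0.176) and by -0.055 in AMY (unadjusted p = 0.0491, adjusted p = 0.742). In Nac the medians were 262.8 and 275.6 CPM, and 21 of 29 cocaine libraries lay above the saline median. The AMY value was -0.15 within series 1200 (unadjusted p = 0.00975, adjusted p = 0.645).

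Crtc1 was not called in any cocaine comparison, with log2 differences from -0.028 in AMY to 0.10 in Nac with chronic cocaine (95% interval -0.021 to 0.22, adjusted p = 0.361). In VTA with acute cocaine its difference was -0.12 in series 1000 and 0.18 in series 1100 (difference between the series 0.31, unadjusted p = 0.0132, adjusted p = 0.233). Crtc2, the coactivator known from hepatic gluconeogenesis, had its largest change in PFC with acute cocaine, from 17.5 through 24.7 to 28.6 CPM in saline to 20.7 through 26.1 to 32.1 in cocaine libraries (log2 change 0.11, unadjusted p = 0.0165, adjusted p = 0.375). Ranges overlapped, and 20 of 30 cocaine libraries lay above the saline median.

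Crtc3 rose in PFC with chronic cocaine by a small amount. Saline libraries ran from 15.6 through 19.3 to 25.97 CPM (19.5 ± 2.61, n = 26) and cocaine libraries from 16.2 through 21.1 to 26.1 (21.4 ± 2.33, n = 28), with 24 of 28 above the saline median. The change was 1.09-fold (log2 change 0.13, SE 0.043, 95% interval 0.047 to 0.21, adjusted p = 0.0451 by edgeR). By number series, saline was 17.7 ± 1.51 CPM in series 500 (n = 10) and 20.7 ± 2.52 in series 1200 (n = 16), while cocaine was 21.7 ± 2.15 in series 1000 (n = 20) and 20.4 ± 2.65 in series 1200 (n = 8). On the chronic schedule series 500 holds saline and series 1000 cocaine libraries alone, so treatment and series cannot be told apart there. Within series 1200 the change was 0.0089 (95% interval -0.13 to 0.15) and with the series as a term -0.017, and without the libraries that stand apart it was 0.11 (adjusted p = 0.0718). The call was also lost without the filter on low counts (adjusted p = 0.0833) and in a fit of the chronic libraries alone (0.0894). With acute cocaine Crtc3 in PFC changed by 0.077 (adjusted p = 0.4995), from a median of 19.9 to 21.5 CPM, and 26 of 30 cocaine libraries lay above the saline median. Crtc3 overlaps Gm44931 on the same strand and Gm15880 on the opposite one.

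Creb1 and Crem, the transcription factors, were not called in any cocaine comparison. Creb1 in PFC had acute medians of 64.7 and 63.5 CPM (log2 change -0.051, 95% interval -0.12 to 0.022) and chronic medians of 59.3 and 60.3 (0.034, -0.042 to 0.11). Its largest change was in AMY with chronic cocaine, from 57.7 ± 5.06 CPM (n = 30) to 61.3 ± 4.40 (n = 30), with 22 of 30 above the saline median (log2 change 0.085, unadjusted p = 0.00805, adjusted p = 0.486). VTA gave 0.078 with chronic cocaine (adjusted p = 0.859). Crem in PFC had 20.3 ± 2.39 CPM (n = 28) and 20.1 ± 3.17 (n = 30) on the acute and 16.5 ± 1.98 (n = 26) and 15.6 ± 2.23 (n = 28) on the chronic schedule (log2 changes -0.018 and -0.077, adjusted p = 0.921 and 0.380). Counts per gene do not separate ICER from the other Crem transcripts.

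In Nac, all 8 members lay above 0 with chronic cocaine, at a median of 0.066 against -0.0068 over all genes, of which 47.3% lay above 0. Treatment and number series are mixed here as in PFC, and some extreme values came from libraries that stand apart. In isolated males with chronic cocaine, such a library was highest for Sik3 (415 CPM, next 298), Crtc1 (568, 354) and Crtc3 (42.6, 25.8). In isolated females with chronic saline, another was lowest for Sik2 (2.42, next 33.8) and Crtc1 (124, 283), and highest for Crem (22.3, 12.2). No member passed the test. In isolated mice 10.4% of all Nac genes were called with chronic cocaine, and 0 of 8 members, a count too small to tell from that share. The nearest was Sik3 at 0.14 (adjusted p = 0.0614 by edgeR). In group-housed mice 0.00579% were called. Chronic cocaine in PFC called 4.39% of genes in isolated mice, Sik1 among them, and 0% in group-housed mice, where 1088 genes had an unadjusted p under 0.05. In AMY the shares were 0.00575% in each housing, and in VTA 0.0117% in group-housed and 0.00583% in isolated mice, with 0 members. The difference between the housings called 0% of genes in every region.

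For acute cocaine, group-housed mice gave 0.332% in VTA, 0.0647% in PFC, 0.0174% in Nac and 0% in AMY, and isolated mice 0% in AMY, Nac and PFC and 0.554% in VTA. The difference between the housings called 0% in AMY, Nac and PFC and 1.28% in VTA. Among the members 0 were called in any of these. The nearest in VTA was Sik3, whose acute change was lower in isolated than in group-housed mice by a log2 difference of -0.18 (unadjusted p = 0.0146, adjusted p = 0.158). In saline mice, housing itself called 0% of genes in each region and 0 members. The difference between females and males in the cocaine change called 0% everywhere except for chronic cocaine in Nac (0.029%), and the acute minus chronic difference called 0% in each region. Over all groups sex called 2.19% of genes in AMY, 1.12% in PFC, 0.332% in VTA and 0.272% in Nac, and 0 members. Crtc3 was lower in females by -0.085 in Nac, -0.080 in PFC and -0.078 in VTA (adjusted p = 0.304, 0.174 and 0.180), and Sik1 by -0.16 in PFC (adjusted p = 0.261).

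Genes around the pathway were read from 4 lists. Of 26 Creb and Crtc target genes, 1 rose and 0 fell in PFC with acute cocaine, where 0.0647% of all genes were called. With chronic cocaine 5 rose and 0 fell, where 7.12% of all genes were called (668 rose and 542 fell). The acute gene was Gem, a GTPase that restrains calcium channels, from 1.76 ± 0.610 CPM (n = 28) to 2.53 ± 1.08 (n = 30; log2 change 0.48, SE 0.109, adjusted p = 0.0492 by edgeR, kept in 4 of 9 alternatives). The chronic genes were the orphan nuclear receptors Nr4a2 (0.63, from 11.7 ± 5.50 to 18.0 ± 5.91 CPM, n = 26 and 28) and Nr4a3 (0.35), and the immediate early genes Fosb (0.39), Egr1 (0.38) and Fos (0.58, named after its value was seen). Their adjusted p-values ran from 0.00334 to 0.0197. The list's median was 0.0048 with acute and 0.077 with chronic cocaine, against 0.0017 and 0.0023 over all genes.

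Among 10 Creb partners and other Sik substrates, 1 rose and 2 fell in PFC with chronic cocaine, against 7.12% called over all genes: Hdac5 (0.12), and Hdac9 (-0.21) and Mef2c (-0.22). Class IIa histone deacetylases such as Hdac5 and Hdac9 are held in the cytoplasm by Sik phosphorylation and repress Mef2 factors in the nucleus. Of 11 Lkb1-activated relatives of the Siks, 0 rose and 2 fell, Mark1 (-0.089) and Brsk2 (-0.10). Of 24 genes of upstream cAMP, calcium and Lkb1 signalling, 1 rose and 5 fell, beside the same 7.12% over all genes. Adcy5, the adenylyl cyclase of striatal neurons, rose by 0.22. Camkk2 (-0.24), the protein kinase A subunit Prkar1b (-0.15) and the calcineurin subunit Ppp3cc (-0.13) fell, as did Ppp3r1 (-0.13) and Camk4 (-0.19), which were named after their values were seen. The medians of these 3 lists with chronic cocaine were -0.0052, -0.029 and -0.050, against 0.0023 over all genes. With the number series as a term they were -0.060, -0.047 and -0.0042, and within series 1200 -0.046, -0.024 and -0.0050. The fall of the upstream list was thus mostly lost in both. With acute cocaine 0 genes of the 3 lists were called in PFC, and in the other regions 0 genes of any of the 4 lists were called on either schedule.

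Several chronic calls of the lists were lost in alternatives. Adcy5 and Ppp3cc lost theirs without the libraries that stand apart (0.16, adjusted p = 0.0756, and -0.10, adjusted p = 0.0705) and in a fit of the chronic libraries alone. Without the libraries that stand apart, 0 of the 24 upstream genes rose and 3 fell, against 1 and 5 in the main fit. Adcy5 and Ppp3cc were thus not the only losses of that list. Hdac5, Mark1, Brsk2, Ppp3cc, Ppp3r1 and Camk4 lost theirs without the filter on low counts. In the fit of the chronic libraries alone, Hdac5, Mark1, Brsk2, Hdac9, Prkar1b, Fos, Ppp3r1 and Camk4 lost theirs as well. With the series as a term, or within series 1200, 0 genes of the 4 lists passed and 1 gene was called over all genes. Within series 1200, which has 8 cocaine libraries, Nr4a2 had a log2 difference of 0.011, Fosb 0.16, Egr1 0.24, Mef2c -0.093, Mark1 -0.060 and Brsk2 -0.072. Markers of other cells moved in the same comparison. Of 6 striatal neuron markers 5 rose in PFC with chronic cocaine, and their summed level ran from 93.2 through 128.3 to 435.9 CPM in saline and from 103.8 through 145.9 to 869.3 in cocaine libraries. Of 4 general neuron markers 3 fell (summed level 4197 through 5274 to 6347 and 3759 through 4888 to 5461 CPM), and 2 of 4 tested dopamine neuron, 2 of 6 choroid plexus and 1 of 5 astrocyte markers rose. The sums ran from 9.87 through 14.1 to 23.4 and 11.1 through 17.5 to 28.3 CPM for the dopamine neuron list, from 3.69 through 5.80 to 24.7 and 4.76 through 8.82 to 27.3 for choroid plexus and from 1926 through 2998 to 4088 and 2359 through 3122 to 4474 for astrocytes. The markers En1, Sim1, Otp, Cyp19a1, Gabra6, Folr1 and Otx2 had 0 counts in 24 to 89 of the 112 PFC libraries. The 5 oligodendrocyte markers, with sums of 1174 through 2014 to 5826 and 1261 through 2571 to 8965 CPM, were not called, nor were those of the other 6 lists. With acute cocaine 0 markers of the 12 lists were called in PFC. Their part in the members' chronic changes was not tested. Without the 5 PFC libraries that stand apart, Sik1 changed by 0.44 with acute and 0.49 with chronic cocaine.

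Across libraries of 1 region, after removal of group means, Sik1 varied most like Fos, with a mean Pearson correlation over the 4 regions of 0.534 (0.640 in AMY, 0.644 in Nac, 0.355 in PFC, 0.495 in VTA), then like Tent5a (0.501) and the phosphatase Dusp4 (0.473). The comparison covered 13652 genes and 112 or 115 libraries a region, which share depth, dissection and composition. Sik2 was most like Map3k13 (0.888), Tnks (0.883) and Cbl (0.879), Sik3 like Dop1b (0.746) and Gtf3c1 (0.741), and Crtc1 like Fbxo41 (0.837), Cacna1c (0.795) and Jph4 (0.790). Crtc2 was most like Arhgef1 (0.835), Safb2 (0.828) and Slc2a4rg-ps (0.827), Crtc3 like Kdm6b (0.674), Dlg5 (0.663) and Plxnb2 (0.658), Creb1 like Zfp638 (0.805), Rbm27 (0.785) and Cdc73 (0.784), and Crem like Fam174b (0.580), P4ha1 (0.576) and Rap1b (0.575). The highest coefficient for Sik1 was thus lower than that of any other member. Among the members themselves Sik2 and Sik3 had the highest mean coefficient, 0.575, and Sik1 was nearest to Crtc3, at 0.334 over the regions and 0.532 in PFC. No other member is among the 3 nearest genes of any member.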

How the data were processed

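The deposited table holds whole-number counts per Ensembl gene for each library. Per the labels' protocols, poly(A) RNA was made into TruSeq Stranded mRNA libraries and read as 50-base single ends. The tools named in the submitters' processing notes are STAR, featureCounts and limma, with GRCm38/mm10. The sources used here give no versions, annotation or strand setting. Groups were taken from the sample characteristics. Symbols matched 42462 of 43346 identifiers, and the rest held 0.11% of counts.

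Counts were analysed in R 4.3.3 with edgeR 4.0.16 (TMM, filterByExpr, robust quasi-likelihood fit of 16 group means per region, 64 in the joint fit), with Benjamini-Hochberg adjustment over all genes tested and a threshold of 0.05. DESeq2 1.42.0 and limma 3.58.1 were alternatives. Values in CPM use TMM within the region, or over all regions for levels. Intervals are the log2 change plus and minus 1.96 SE. Libraries stood apart with a robust z over 5 on any of 4 principal components or over 8 on a marker list. The most alike pair of libraries within a group still differed by more than counting noise (chi-square per degree of freedom 2.69). The fit was tested on simulated data. The lists' genes that are named passed the threshold, at most 4 per list and comparison by lowest p, with Fos, Ppp3r1 and Camk4 added after their values were seen, and for each member the 3 most correlated genes with at least 1 CPM are named, except 1 gene that is not reported here. The 8 members, the pathway and marker lists and the tests were chosen with earlier results of these data known.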

Additional observations from a re-analysis of the deposited data

Results flagged for a closer look

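A library was picked out where its gap to the nearest other library of its group, divided by the range of the group, was above Dixon's 95% critical value. Chance alone picks out about 1 group in 20. Over the 8 members and 64 groups, 47 of 512 groups (9.18%) held such a library: 13 of 64 for Sik2, 8 for Crtc1, 6 for Crtc3, 5 for Sik1, 4 each for Sik3, Crtc2 and Creb1 and 3 for Crem. The values below are those of Sik1, Sik2 and Crtc3, the members on which the results turn.

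All 13 Sik2 libraries were the lowest of their group, and 5 of them stand apart from their region. In AMY the value was 9.51 CPM in a library of group-housed males with acute cocaine. In Nac the values were 2.42 CPM in isolated females with chronic saline and 10.6 in isolated males with acute cocaine. In PFC they were 6.39 in group-housed and 8.88 in isolated females with chronic saline, and 14.9 in isolated males with acute saline. In VTA they were 16.9 and 19.5 in group-housed females with chronic cocaine and saline, 22.5 and 16.7 in isolated females with acute saline and chronic cocaine, 10.8 and 20.4 in group-housed males with acute and chronic cocaine, and 4.45 in isolated males with chronic saline.

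For Sik1, 4 libraries were the highest of their group: 24.4 CPM in AMY (isolated females, chronic cocaine), 23.0 in Nac (group-housed males, chronic saline), 18.5 in PFC (group-housed males, chronic saline) and 22.3 in PFC (isolated males, chronic cocaine). The fifth was the lowest, at 17.4 CPM in PFC (group-housed males, acute cocaine). For Crtc3 the values were 22.6 and 31.2 CPM in AMY (group-housed females with acute cocaine, isolated males with chronic saline) and 42.6 in Nac (isolated males with chronic cocaine). In VTA they were 19.9 and 21.6 (group-housed females with acute cocaine and with chronic saline) and 16.4 (isolated females with acute cocaine). No cause of these values was tested.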

How the results depend on the processing

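The acute rise of Sik1 in PFC passed the threshold in 8 of 9 alternatives (log2 change 0.40 to 0.53). Without the filter on low counts it was 0.43 with adjusted p = 0.0645, which left 0 members called. With chronic cocaine, 2 members were called in PFC, but 1 without the filter, with libraries of that schedule only and without the libraries that stand apart, and 0 with the number series as a term or within series 1200. There Sik1 had 0.57 (adjusted p = 0.764) and 0.60 (0.972), values that both rest on series 1200 and are not independent. Crtc3 had 0.13 (0.0833) without the filter, 0.13 (0.0894) with that schedule only, 0.11 (0.0718) without the libraries that stand apart, -0.017 with the series as a term and 0.0089 within series 1200. Of the named list genes, Nr4a2 (-0.019), Nr4a3 (-0.053), Hdac5 (-0.059) and Ppp3cc (0.012) reversed with the series as a term, and Hdac5 (-0.044) within series 1200. Gem kept its direction but lost the threshold in 5 of 9 alternatives, among them the series as a term (adjusted p = 0.0533). Over all genes, acute calls in PFC fell from 11 to 2 in a fit of series 1100 alone, and chronic calls (668 genes rose and 542 fell) went to 639 without the filter, 411 with that schedule only and 1 with the series as a term or within series 1200. Calls of members in AMY, Nac and VTA were 0 in every alternative run, leaving out each isolated male with acute cocaine in AMY included. Libraries of different regions share title numbers. Between libraries of equal number, deviations from the group means had a median correlation of 0.023 to 0.062 over the 6 pairs of regions. Of 99 to 106 pairs of libraries, 14 to 31 were above 0.1. Libraries of unequal number were not compared, so whether the numbers pair libraries was not tested. With the title number as a replicate block in limma voom (consensus correlation 0.0319), the difference of the acute Sik1 change was -0.39 for AMY minus PFC, -0.34 for Nac minus PFC and 0.36 for PFC minus VTA, and no member's call changed, in level or in acute change.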
